A study of Jatropha curcas with 10 samples.

Results

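The 100 most abundant transcripts of Jatropha curcas inflorescence meristems were the 100 gene IDs with the highest mean value over the 10 libraries, of 28447 IDs in all. They were chosen by their level, so their levels, shares and ranks are given as a description with no test. The mean runs over every time, so a transcript that was high at 1 or 2 times could enter through them. Ranked anew by the mean of the 8 libraries left when 1 time is set aside, 90 members stayed among the 100 highest whichever time it was, and 10 did not. Among these 10 were JCGZ_10096, JCGZ_21465, JCGZ_02232, JCGZ_18481 and JCGZ_02534, whose changes are described below. Of the 100, 98 have a JCGZ locus tag as their ID and the other two are Novel00683 and Novel01008. The values were read as RPKM, which sets reads against gene length and library depth. The cutoff was narrow: the members at ranks 99 and 100 averaged 1472 RPKM each (JCGZ_23079 at 1471.9 and JCGZ_05601 at 1471.5), and the IDs just outside it, JCGZ_23505 and JCGZ_16048, averaged 1469 and 1456 RPKM.

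Jatropha curcas is an oilseed shrub. Inflorescence meristems from 3-year-old plants were collected at 0, 6, 12, 24 and 48 h after exogenous treatment with GA3, a gibberellin. All groups carry the treatment label, the dose and mode are not in the labels, and the labels used here list no plants without GA3. The effects of GA3, of elapsed time and of the hour of day therefore cannot be told apart. Each time has 2 libraries, and the labels do not state separate plants for them, so p-values rest on a spread between libraries that may be technical.

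Gibberellins bind the receptor GID1, which leads to the breakdown of the DELLA proteins, repressors of growth-related transcription. In dividing plant tissue the most abundant transcripts commonly encode ribosomal proteins, translation factors, histones and other proteins that every cell uses, and in green tissue also proteins of photosynthesis. Which of these the members encode is not given here: the deposited tables hold IDs without names, and a RefSeq table of 28617 Jatropha genes shared 0 IDs with them. The meristem, flower and leaf markers that would check the labelled tissue could not be looked up for the same reason. No member sequence or genome position was used here, and reads shared with near-identical gene copies could not be examined.

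Between 15934189 and 24448219 reads were recovered per library, and 20166 to 20599 IDs had reads in each. For a transcript of 1 kb, a floor of 3 reads stood at 0.123 to 0.188 RPKM. Members averaged 5914 to 97771 reads per library, and the lowest count of a member in any library was 48 reads. Library 1 and library 2 of the treated times differed in a way shared between those times, which touches many of the values below and is described with the shares.

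The levels fell steeply over the first ranks and then flattened. JCGZ_00661 stood first at a mean of 11266 RPKM, the 10th member averaged 5134 RPKM, the 50th 1962 RPKM and the 100th 1472 RPKM, so the first and the last member differed 7.66-fold. Over the libraries 54 members stayed above 1000 RPKM in every library, whereas 4 went below 100 RPKM in at least 1 library. For 77 members the highest library was less than 4 times the lowest, and for 8 it was more than 10 times the lowest (median over members 2.91).

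**Figure D1:**
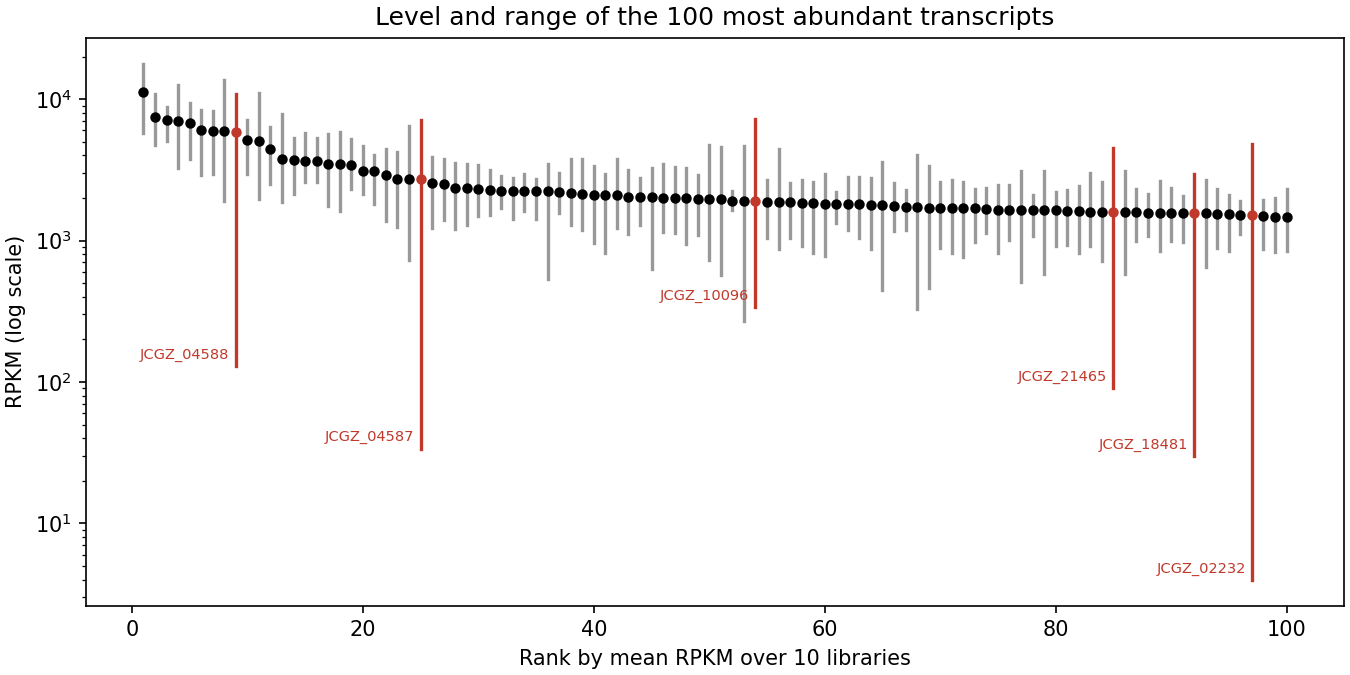
RPKM (log scale) of the 100 members against their rank by mean RPKM over 10 libraries; points are means, vertical lines run from the lowest to the highest library, and red marks the 6 members with an adjusted p under 0.05 in at least 1 comparison. Most lines are short, while that of JCGZ_02232 at rank 97 reaches down to 3.98 RPKM.

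JCGZ_00661 (coding length 360 bases) was the highest ID by time mean at all 5 times. Its level was 9995 and 10450.3 RPKM at 0 h, 9651 and 14887 RPKM at 6 h, 14589 and 5774 RPKM at 12 h, 17841 and 8577 RPKM at 24 h, and 11394 and 9498 RPKM at 48 h (library 1 and library 2). It was first in 8 of the 10 libraries; JCGZ_18885 was first in library 2 of 12 h at 6873 RPKM and JCGZ_08882 in library 2 of 24 h at 11035 RPKM. The libraries of 12 h and of 24 h differed from each other by more than any pair of time means of this transcript, and limma called no change of it in any comparison.

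Novel00683 (688 bases) was second at a mean of 7512 RPKM, between 4731 and 10844 RPKM over the libraries, and took the most reads of all members (97771 per library on average). JCGZ_18885 (507 bases) came next at 7108 RPKM and among the steadiest, between 5088 and 8841 RPKM. JCGZ_20192 and JCGZ_00662 followed at 7034 and 6774 RPKM, JCGZ_17584, JCGZ_09069 and JCGZ_05889 at 6004, 5981 and 5971 RPKM, JCGZ_04588 at 5860 RPKM and JCGZ_02687 at 5134 RPKM. Of these 10, JCGZ_04588 spanned the widest range, from 129 to 10812 RPKM. Novel01008 (412 bases, rank 36), was at 3484 and 2977 RPKM at 0 h, but at 2175 and 532 RPKM at 24 h and 2507 and 565 RPKM at 48 h, so library 2 alone was low at those times.

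The members were chosen over these same times, so their overlap with the highest IDs of a time is partly set by the choice. By time means, the 100 highest IDs held 85 of the members at each of 0 and 6 h, 83 of them at 12 h, and 89 of them at each of 24 and 48 h. In all, 39 IDs were among the 100 highest in every single library, all of them members, and 193 IDs were among the 100 highest in at least 1 library. The order of the members by time mean was closest between 0 and 24 h and between 24 and 48 h (Spearman rho over the 100 members of 0.82 each) and farthest between 0 and 12 h (0.34), with 0.74 between 6 and 12 h. Between single libraries rho was 0.065 to 0.89 and within a time 0.38 to 0.89. These are correlations over genes from libraries that differ in the same length-related way, so no p is attached.

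The members were short. Their median length was 423 bases, from 153 to 1353, against 1104 bases for the 17403 IDs tested, and 79.0% of them were under 600 bases against 19.0% of those tested. RPKM divides by length, so a short gene needs fewer reads to rank high: of the 100 IDs with the most reads for the depth of each library, 58 were members. IDs without a JCGZ tag were 2 of the 100, against 5.28% of the tested IDs. There were 3 pairs of consecutive locus tags among the members, JCGZ_00661 with JCGZ_00662, JCGZ_04587 with JCGZ_04588, and JCGZ_08881 with JCGZ_08882. Over the 10 libraries their log2(RPKM + 1) levels correlated at r = 0.52, 0.98 and 0.81 in that order, as a description.

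Summed RPKM adds the values of all IDs in a library, and the 100 members held 16% to 24% of it. In library 1 the share went from 21.1% (0 h) through 20.1% (6 h), 20.4% (12 h) and 24.02% (24 h) to 20.5% (48 h), and in library 2 from 23.0% through 19.8%, 15.96% and 21.5% to 17.9%. The means were 22.1% ± 1.4, 19.97% ± 0.24, 18.2% ± 3.2, 22.7% ± 1.8 and 19.2% ± 1.8 (SD, n = 2 each). The libraries of 12 h lay farthest apart, and the ranges of 0 h and 24 h overlapped, as did those of 6, 12 and 48 h. Of recovered reads the members took less, because they are short: 13.5% ± 1.5, 11.9% ± 0.84, 10.3% ± 2.8, 14.7% ± 1.5 and 11.01% ± 1.9 at the 5 times. The first 10 members held 6.15% ± 0.37, 4.83% ± 0.46, 4.23% ± 0.86, 6.26% ± 1.1 and 5.63% ± 0.065 of the summed RPKM in the same order of times. Within library 1 the share of the 100 was highest at 24 h and lowest at 6 h, whereas within library 2 it was highest at 0 h and lowest at 12 h. The 0 h libraries did not pair by number with the treated ones, so each course joins them by number alone.

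**Figure D2:**
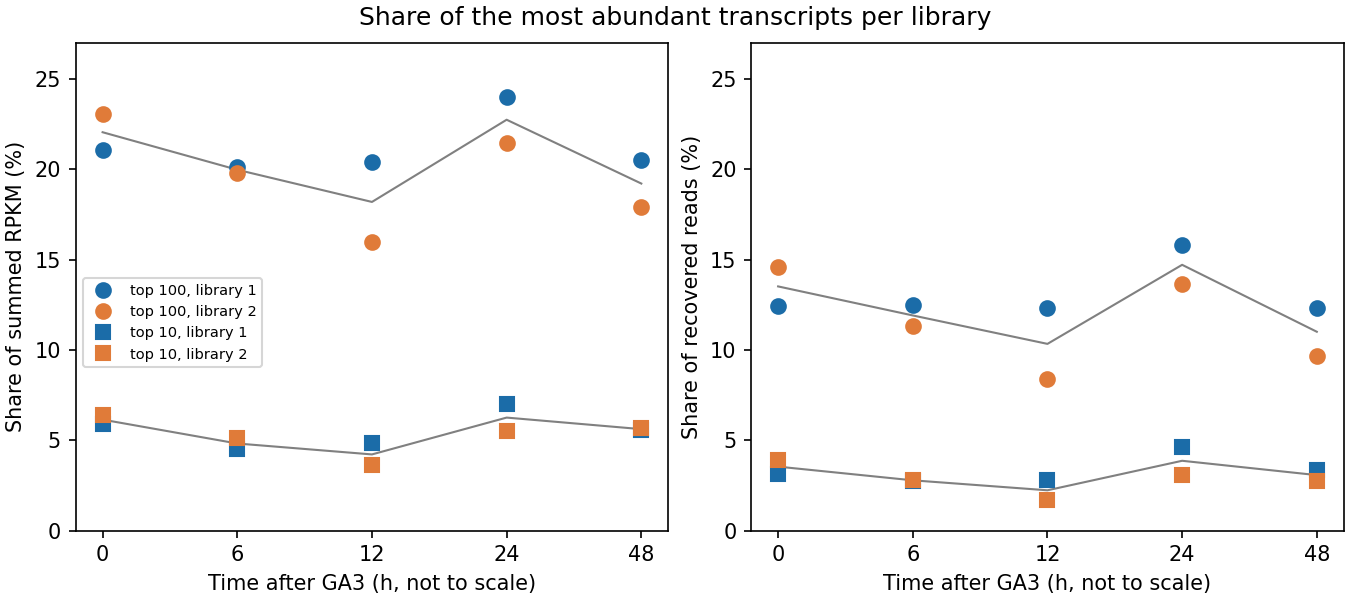
Share of the 100 highest (circles) and the 10 highest transcripts (squares) in each library, as percent of summed RPKM (left) and of recovered reads (right), against time after GA3; blue is library 1, orange library 2, and grey lines join the means of 2 libraries. The share of the 100 lies between 15.96% and 24.02% of summed RPKM, with the widest gap between libraries at 12 h.

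The 4 members called lower at 12 h than at 0 h were picked by that fall in these same libraries. The drop of their share from 0 h to 12 h therefore follows from the choice. Together they held 1.38% ± 0.053 of the summed RPKM at 0 h and 0.613% ± 0.046 at 6 h. They held 0.0230% ± 0.0063 at 12 h, then 1.41% ± 0.53 at 24 h and 1.15% ± 0.044 at 48 h. The 94 members called in no comparison held 20.6% ± 1.3, 18.6% ± 0.41, 17.8% ± 3.2, 21.3% ± 1.3 and 18.0% ± 1.8 at the 5 times (SD, n = 2). Their mean share was also lower at 6, 12 and 48 h than at 0 and 24 h, and at 12 h its libraries spanned 15.5% to 20.05%.

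Which time was highest for a member turned on the library number. By means of both libraries, 24 h was the highest time of 51 members, 6 h of 23, 0 h of 17, 12 h of 7 and 48 h of 2, while 48 h was the lowest time of 43 and 12 h of 25. Among the libraries numbered 1, 57 members were highest at 24 h and 56 were lowest at 0 h. Among those numbered 2, 56 were highest at 0 h and 46 were lowest at 48 h. Only 15 members had the same highest time in both series, and 20 the same lowest time. Library numbers paired within the treated times only, as given with the processing, so a 0 h library joins its series by number alone. Without library 1 of 24 h, 19 members were highest at 24 h and 40 at 6 h; without library 2 of 24 h, 66 were highest at 24 h. Library 1 was above library 2 in 17 members at 0 h, but in 68, 84, 74 and 85 members at 6, 12, 24 and 48 h. Over all tested IDs it went the other way, with library 1 higher in 63.7% at 0 h. At 6, 12, 24 and 48 h it was higher in 37.9%, 43.5%, 40.1% and 47.6% of them. The difference between the libraries moved with gene length over all tested IDs (Spearman rho of 0.41 at 0 h, and of -0.36, -0.57, -0.48 and -0.49 at the treated times), and over the members with rho of 0.22, -0.17, -0.31, -0.45 and -0.44. The part of length in the shares was not tested.

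**Figure D3:**
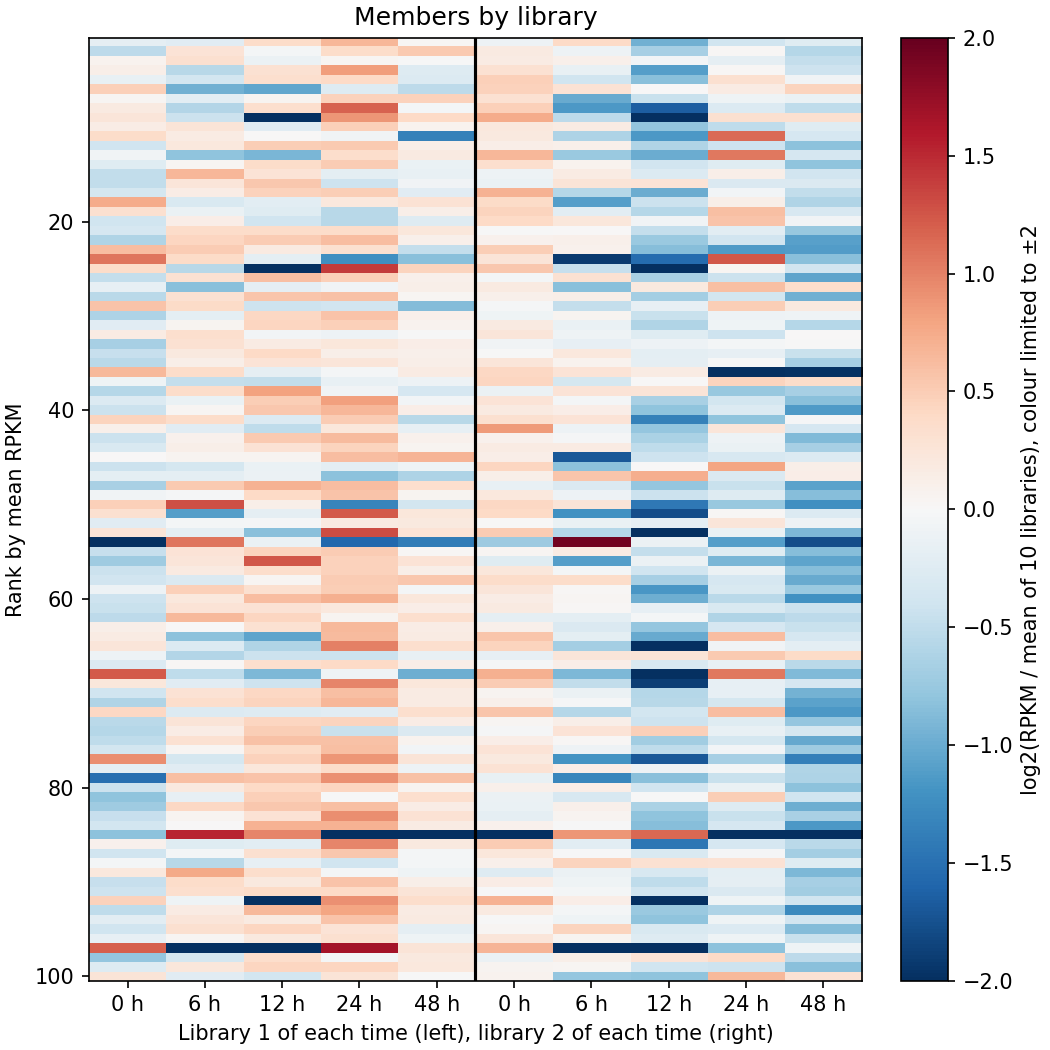
Level of each member in each library as log2 of RPKM over the mean of 10 libraries, with the libraries numbered 1 on the left and those numbered 2 on the right, rows ordered by rank and the colour limited to ±2. Many rows turn from blue at 0 h to red at 24 h on the left and from red at 0 h to blue at 48 h on the right.

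Over all members the typical change was small. Fitted on all 10 libraries with limma, the median change of the 100 members on the log2(RPKM + 1) scale was 0.08, -0.04, 0.21 and -0.23 at 6, 12, 24 and 48 h against 0 h, beside medians of 0.04, 0.08, -0.15 and -0.02 over the 17403 IDs tested. The direction of all 4 medians of the members turned when 1 library was left out. The median at 6 h was -0.10 without library 1 of 0 h, that at 12 h was 0.31 without library 2 of 12 h, that at 24 h was -0.13 without library 1 of 24 h, and that at 48 h was 0.0065 without library 2 of 48 h. The median at 12 h was also 0.0034 after a correction for gene length. With median-of-ratios scaling, which brings the median of all tested IDs at 24 h from -0.15 to 0.00078, the median of the members at 24 h was 0.38. A change of more than 2-fold was fitted in 10, 20, 4 and 8 members at 6, 12, 24 and 48 h, against 8.04%, 9.45%, 4.5% and 4.83% of the tested IDs. All 100 members passed the filter on low values, a mean of at least 1 RPKM.

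**Figure D4:**
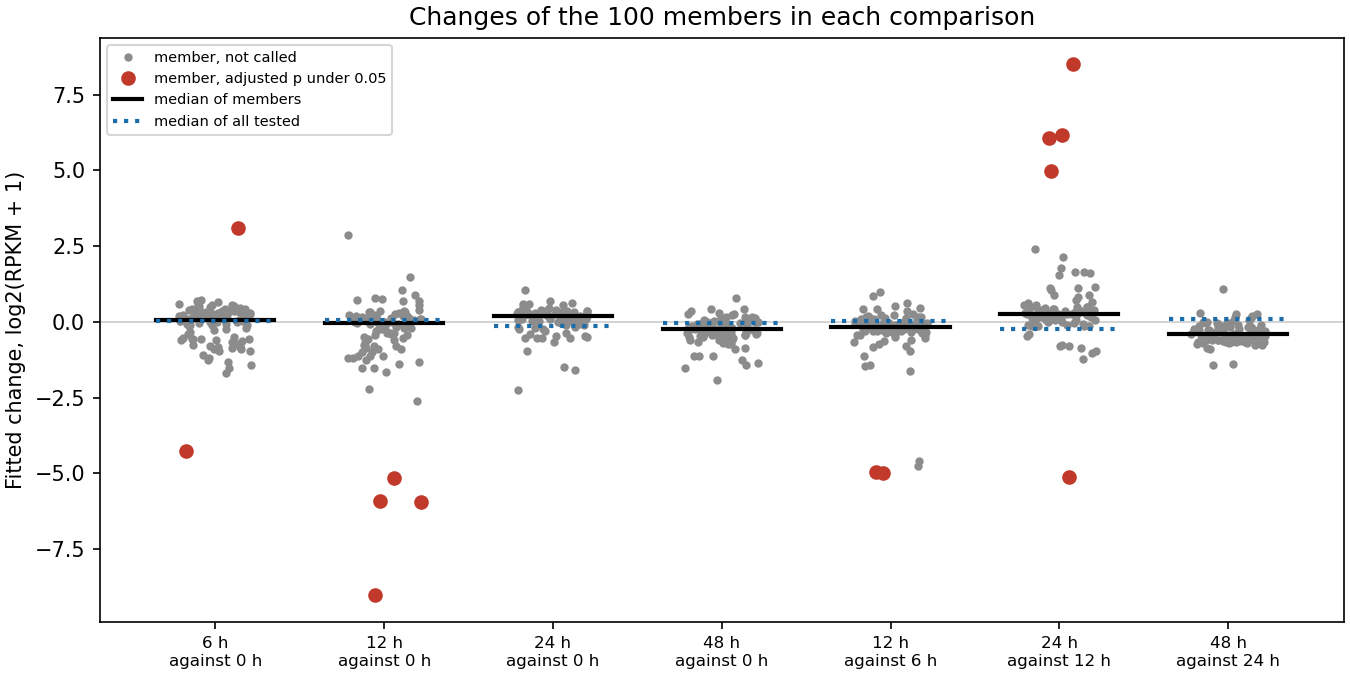
Fitted change of each member on the log2(RPKM + 1) scale in 7 comparisons; red points have a limma adjusted p under 0.05, black bars are medians of the members and dotted blue bars medians of the 17403 IDs tested. Most members lie within 1 unit of 0, and the called points lie beyond 3 units in either direction.

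Against 0 h, limma called 2 of the 100 members at 6 h (1 higher, against 0.483% of all tested IDs, and 1 lower, against 0.649%) and 4 at 12 h (all lower, against 1.29%, with 0.241% higher), by a Benjamini-Hochberg adjusted p under 0.05. In either direction, 1.13% of all tested IDs were called at 6 h and 1.53% at 12 h, so at 6 h the members' count lay near the background. At 24 h and at 48 h limma called 0 members and 0% of all tested IDs; 2 members at each time had an unadjusted p under 0.05, against 3.3% and 4.56% of all tested IDs, and voom on recovered reads called 0 as well. At an unadjusted p under 0.05 stood 10 members at 6 h and 17 at 12 h, against 11.3% and 11.9% of all tested IDs. Between consecutive treated times, limma called 2 members from 6 h to 12 h (both lower, against 0.121% of all tested IDs lower, 0.00575% higher and 0.126% in either direction), 5 from 12 h to 24 h (4 higher, against 0.85%, and 1 lower, against 0.305%, with 1.15% in either direction) and 0 from 24 h to 48 h (0%, with 1 member at an unadjusted p under 0.05 and 0 by voom). The F-test over all times called 5 members and 1.32% of all tested IDs. An unadjusted p under 0.05 was reached by 7 members from 6 h to 12 h (4.9% of all tested IDs), by 17 from 12 h to 24 h (11.7%) and by 11 in the F-test (10.4%). These comparisons share libraries, and so the calls of a member in several of them are not separate evidence. The tests ran over all 17403 IDs, and counts of members called are a description, since some members entered through the times at which they were high. In all, 6 members were called in at least 1 comparison, and all 6 are named below; 4 fell to their lowest level at 12 h and 2 were high at 6 h.

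JCGZ_04588 (coding length 798 bases, rank 9) was among the 10 highest overall and fell at 12 h. Its level was 6899 and 9783 RPKM at 0 h, 4340 and 4081 RPKM at 6 h, 129 and 136 RPKM at 12 h, 10812 and 7339 RPKM at 24 h, and 7763 and 7323 RPKM at 48 h. Both 12 h libraries lay below every other library, and the 6 h libraries lay between them and the rest. From rank 2 at 0 h it went to rank 1665 at 12 h and returned to rank 4 at 24 h. The fitted change against 0 h was -5.94 ± 0.35 at 12 h (log2, SE; limma adjusted p = 0.000536), a call kept in all 21 alternatives (adjusted p of 8.63e-05 to 0.0152). At 6 h the fitted change was -0.96 ± 0.35 with a limma adjusted p of 0.329. From 6 h to 12 h it fell by 4.98 ± 0.35 (limma adjusted p = 0.00334); this call was lost without library 1 or 2 of 6 h (0.069 and 0.0521) and in a fit to the 4 libraries of the pair (0.0629). From 12 h to 24 h it rose by 6.06 ± 0.35 (limma adjusted p = 0.000458), lost only in the fit to the 4 libraries of 12 and 24 h (0.0531).

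JCGZ_04587 (783 bases, rank 25) carries the preceding locus tag and moved alike. Its level was 3505 and 3952 RPKM at 0 h, 1844 and 1975 RPKM at 6 h, 107 and 33.8 RPKM at 12 h, 7131 and 2778 RPKM at 24 h, and 3710 and 2080 RPKM at 48 h. The 12 h libraries were again the lowest, and the levels of 0, 24 and 48 h overlapped. The change against 0 h was -5.92 ± 0.62 at 12 h (log2, SE; limma adjusted p = 0.00476), and the limma adjusted p was 0.0678 and 0.0564 without library 1 or 2 of 0 h. From 12 h to 24 h it rose by 6.18 ± 0.62 (limma adjusted p = 0.00445, and 0.157 in the fit to 4 libraries). The fall from 6 h to 12 h, -4.96 ± 0.62, had a limma adjusted p of 0.0392 and was lost in 11 of 22 alternatives, with an adjusted p of up to 0.375. The libraries whose removal ended it were library 1 and 2 of 0 h (0.115 and 0.116), of 6 h (0.232 and 0.375) and of 48 h (0.0878 and 0.0882), and library 2 of 12 h (0.179).

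JCGZ_18481 (798 bases, rank 92) has the same coding length as JCGZ_04588. Its level was 2152 and 2530 RPKM at 0 h, 1470 and 1715 RPKM at 6 h, 140 and 30.0 RPKM at 12 h, 2966 and 1484 RPKM at 24 h, and 2011 and 1185 RPKM at 48 h. Here too both 12 h libraries lay below all others, while the 6 h libraries lay within the range of 48 h. The change against 0 h at 12 h was -5.14 ± 0.67 (log2, SE; limma adjusted p = 0.0114), with 0.109 and 0.106 without library 1 or 2 of 0 h. From 12 h to 24 h it rose by 4.99 ± 0.67 (limma adjusted p = 0.0170), a call lost without library 1 or 2 of 0 h (0.0525 and 0.0527), without library 1 of 24 h (0.114) and in the fit to 4 libraries (0.241). The F-test gave a limma adjusted p of 0.0272, above the threshold in 8 of 20 alternatives: without library 1 or 2 of 0 h (0.107 and 0.105), of 6 h (0.0892 and 0.0913) or of 48 h (0.0625 and 0.0604), without library 2 of 12 h (0.0682) and without a filter (0.0551). From 6 h to 12 h the fitted change was -4.59 ± 0.67 with a limma adjusted p of 0.0806, and 0.0189 with the library number as a block among the treated libraries. Its rank without the 0 h libraries was 113, and without those of 24 h it also fell just outside the first 100, so it is a member through those times. Its changes into or out of those times were therefore not independent of the choice. The p-values above describe it among all tested IDs only. Over the 10 libraries the log2 levels of JCGZ_18481 correlated with those of JCGZ_04587 at r = 0.99 and of JCGZ_04588 at r = 0.96, a description of transcripts named for the same fall.

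JCGZ_02232 (585 bases, rank 97) had the widest range of all members. Its level was 3457 and 2423 RPKM at 0 h, 101.2 and 224 RPKM at 6 h, 3.98 and 5.28 RPKM at 12 h (48 and 59 reads), 4782 and 858 RPKM at 24 h, and 1793 and 1419 RPKM at 48 h. Already at 6 h both libraries lay below every library of 0, 24 and 48 h, and at 12 h both lay below 6 h. From rank 27 at 0 h it went to rank 1402 at 6 h, 14442 at 12 h and 28 at 24 h. Without the libraries of 0 h its rank was 148, without those of 24 h it was 138, and without those of 48 h it fell just outside the first 100, so it is a member through the times at which it was high. Its changes into or out of those times were therefore not independent of the choice. The p-values below describe it among all tested IDs only. The change against 0 h was -4.25 ± 0.73 at 6 h (log2, SE; limma adjusted p = 0.0391) and -9.02 ± 0.73 at 12 h (limma adjusted p = 0.00166). The call at 12 h held in all 21 alternatives (adjusted p of 0.000177 to 0.0319). That at 6 h was lost in 9 of 21: without filter (0.066), without library 1 or 2 of 0 h (0.298 and 0.202), of 6 h (0.265 and 0.124), of 12 h (0.0569 and 0.0565) and of 48 h (0.0704 and 0.0700). From 12 h to 24 h it rose by 8.50 ± 0.73 (limma adjusted p = 0.00246, and 0.128 in the fit to 4 libraries).

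JCGZ_21465 (348 bases, rank 85) went the other way. Its level was 902 and 223 RPKM at 0 h, 4549 and 2922 RPKM at 6 h, 3127 and 3515 RPKM at 12 h, 90.1 and 100.1 RPKM at 24 h, and 217 and 192 RPKM at 48 h. All 4 libraries of 6 and 12 h lay above all others, and the 24 h libraries were the lowest. Its rank went from 389 (0 h) to 16 (6 h) and 15 (12 h), then to 2285 (24 h), so it is a member through 6 and 12 h (rank 163 without the 6 h libraries and 148 without those of 12 h). Its change into or out of those times was therefore not independent of the choice, and the p-values below describe it among all tested IDs only. From 12 h to 24 h it fell by 5.11 ± 0.58 on the log2 scale (SE; limma adjusted p = 0.00842), a call lost without library 2 of 12 h (0.0502), without library 1 of 24 h (0.0604) and in the fit to 4 libraries (0.0531). Against 0 h its fitted changes were 3.02 ± 0.58 at 6 h and 2.88 ± 0.58 at 12 h, with limma adjusted p of 0.0587 and 0.0574, above the threshold. Without library 1 of 0 h they were 4.02 ± 0.39 and 3.89 ± 0.39 (limma adjusted p = 0.0216 and 0.0257). With a replicate block over all 10 libraries the limma adjusted p was 0.0235 and 0.0223. Over 21 alternatives each, 4 passed at 6 h (0.0216 to 0.342) and 5 at 12 h (0.0223 to 0.222). The F-test over all times called it (limma adjusted p = 0.0098).

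JCGZ_10096 (507 bases, rank 54) was the member called higher at 6 h and had the highest coefficient of variation over the 10 libraries (113%). Its level was 337 and 1148 RPKM at 0 h, 3965 and 7217 RPKM at 6 h, 1726 and 1739 RPKM at 12 h, 635 and 877 RPKM at 24 h, and 716 and 551 RPKM at 48 h. The 6 h libraries lay above all others and the 12 h libraries above those of 0, 24 and 48 h. Without the 6 h libraries its mean was 966 RPKM and its rank 184, so it is a member through 6 h, and its difference there was not independent of the choice. As a value among all tested IDs, the change against 0 h at 6 h was 3.10 ± 0.57 (log2, SE), for which limma gave an adjusted p of 0.0497. This call was lost in 16 of 21 alternatives, among them leaving out any single library. With all 10 libraries it was also lost with a pseudocount of 0.1, without a filter, with median-of-ratios scaling, TPM-like rescaling or voom. It therefore rests on the full set and on the processing. In the F-test its limma adjusted p was 0.103.

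**Figure D5:**
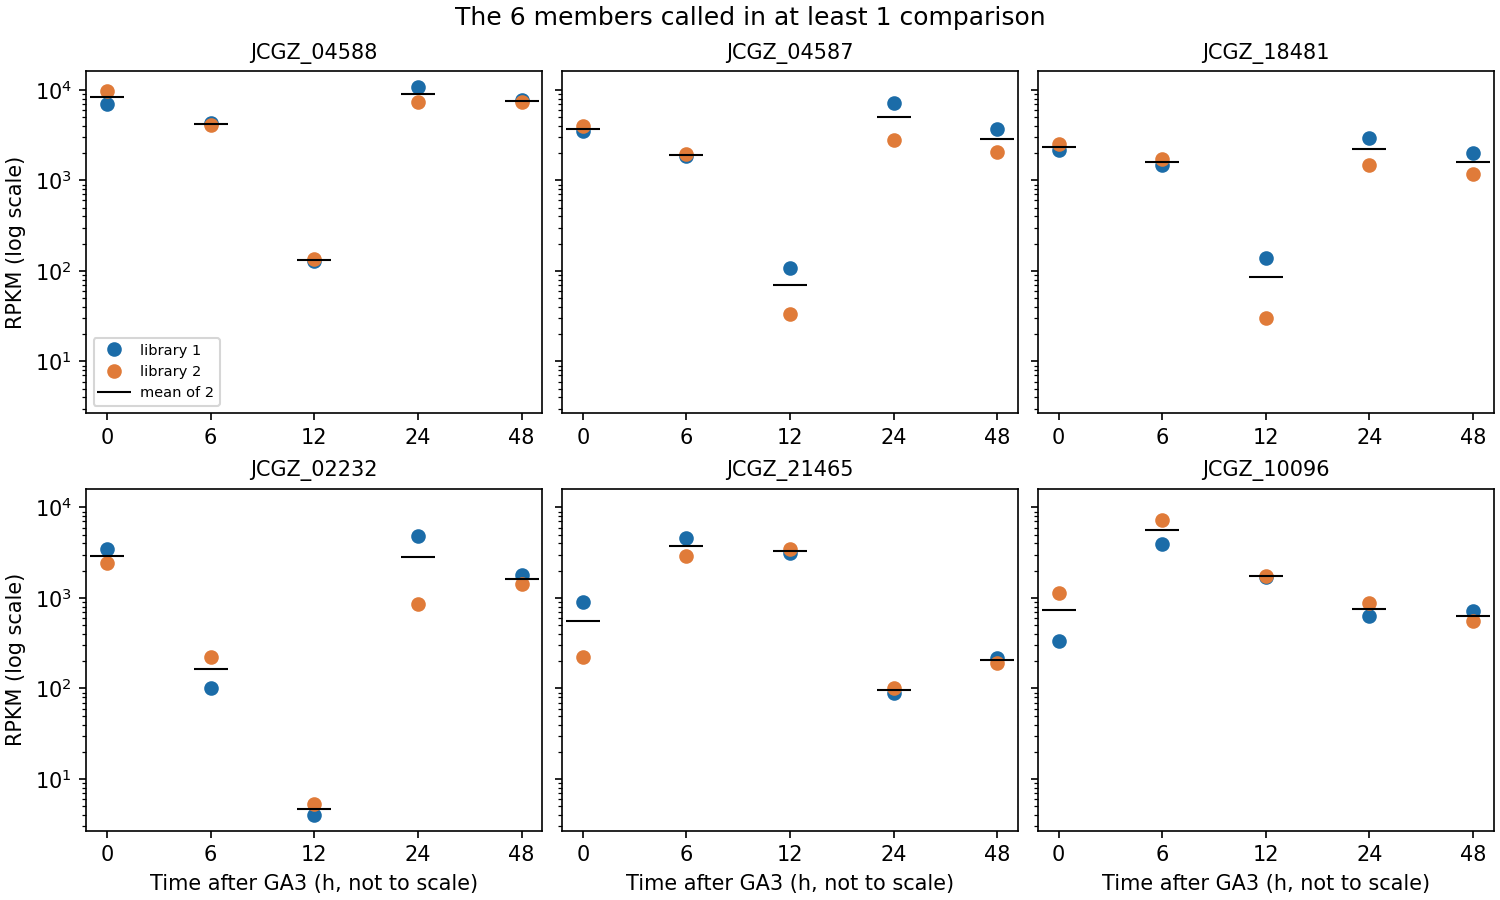
RPKM (log scale) of the 6 called members in each library against time after GA3; blue is library 1, orange library 2, and black bars are means of 2. JCGZ_04588, JCGZ_04587, JCGZ_18481 and JCGZ_02232 are lowest at 12 h, JCGZ_21465 is high at 6 and 12 h, and JCGZ_10096 is highest at 6 h.

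Library numbers paired within the treated times only, and with the number as a block among these 8 libraries 11 members were called from 12 h to 24 h, against 7.15% of all tested IDs. Of the 11, 10 rose and 1 fell, while of the 17403 tested IDs 504 were called higher and 741 lower. That balance over all tested IDs turned with the fit. Without the block 148 were called higher and 53 lower, and with a block over all 10 libraries 225 and 96. A block with the 0 h library numbers swapped gave 436 and 612. The block among the 8 treated libraries was added after the data were seen. From 6 h to 12 h the same block called 3 members, against 0.85% of all tested IDs, JCGZ_18481 besides the 2 called without it. From 12 h to 24 h, all 5 called without the block were among the 11. The other 6, named because the block added them, all rose: JCGZ_07467 by 2.40 ± 0.36, JCGZ_26561 by 1.77 ± 0.29, JCGZ_16577 by 1.66 ± 0.32, JCGZ_03468 by 1.65 ± 0.30, JCGZ_04972 by 1.61 ± 0.37 and JCGZ_06303 by 1.55 ± 0.32 (log2, SE; limma adjusted p of 0.0137 to 0.0451). JCGZ_03468 had the smallest SE of the 6 in the fit without the block (0.34), though not with it. Its level was 2009 and 2618 RPKM at 0 h, 1015 and 1562 RPKM at 6 h, and 865 and 887 RPKM at 12 h. At 24 h it was 2764 and 2743 RPKM, and at 48 h 2014 and 1419 RPKM. Its 12 h libraries lay below and its 24 h libraries above all others. JCGZ_07467 shows the pull of the library number, at 1058 and 272 RPKM at 12 h and 4674 and 1722 RPKM at 24 h, with library 1 above library 2 at both times. Without the block the limma adjusted p of the 6 was 0.0799 to 0.325.

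No member was called at 24 h or 48 h against 0 h, and the widest fitted changes there did not pass the test. At 24 h they were 1.06 ± 0.85 in JCGZ_14774 and -2.23 ± 0.58 in JCGZ_21465 (log2, SE; limma adjusted p = 0.951 each). JCGZ_14774 was at 576 and 1477 RPKM at 0 h and at 3089 and 1204 RPKM at 24 h, so the groups overlapped. At 48 h they were 0.80 ± 0.85 in JCGZ_14774 (limma adjusted p = 1.0) and -1.90 ± 0.56 in JCGZ_02534 (limma adjusted p = 0.936). JCGZ_02534 was at 4054 and 2826 RPKM at 0 h, 1221 and 926 RPKM at 6 h, 924 and 328 RPKM at 12 h, 1631 and 3597 RPKM at 24 h, and 877 and 938 RPKM at 48 h. Its 48 h libraries lay below both 0 h libraries, as did those of 6 and 12 h. Without the 0 h libraries its rank was 123, so it is a member through 0 h. Its change from 0 h was therefore not independent of the choice. From 24 h to 48 h the widest changes were 1.10 ± 0.58 in JCGZ_21465 and -1.42 ± 0.56 in JCGZ_02534 (limma adjusted p = 0.905 each).

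The steadiest member was JCGZ_11338 (1014 bases, rank 52), between 1638 and 2247 RPKM over the 10 libraries with a coefficient of variation of 11.4%. JCGZ_18885 at rank 3 followed with 14.3% and JCGZ_16965 at rank 32 with 15.3%. JCGZ_11338 was at 1638 and 1918 RPKM at 0 h and at 1867 and 1685 RPKM at 12 h, so those groups overlapped. Its 24 h libraries, at 2157 and 2247 RPKM, lay above every library of 0, 6 and 12 h. At the other end stood JCGZ_02232, JCGZ_21465 and JCGZ_10096 with 108%, 109.9% and 113%. The median coefficient of variation was 32.0% for the members and 30.2% for all tested IDs, and 43 members lay below the latter. Between the libraries of a time the median SD on the log2 scale was 0.49 for members and 0.36 for all tested IDs.

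The 3 IDs whose log2(RPKM + 1) levels were most like those of JCGZ_00661 over the 10 libraries were not members. They were JCGZ_26368 (r = 0.92, mean 67.4 RPKM), JCGZ_14755 (r = 0.89, 76.5 RPKM) and JCGZ_04939 (r = 0.88, 30.5 RPKM). The level of JCGZ_00661 follows the library number at 12, 24 and 48 h, with library 1 above library 2, so these correlations carry that difference too.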

How the data were processed

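The authors deposited 1 table per library with a value for each gene ID, and per the file headers no unit is named. Bowtie 0.12.2 and a mouse build, mm8, are listed without a role, per the submitters' processing notes; for the aligned genome, the counter and the annotation nothing is stated in the labels. The deposited values were read as RPKM: 100% of the 203696 values above 0 were whole reads within 0.01 once library denominators and gene lengths had been solved from the values, and 99.9% of the JCGZ lengths were multiples of 3 (coding lengths). The method was tested on simulated data. Libraries of a time shared 0 identical values above 0, and their reads differed beyond counting noise (chi-square per gene of 54.9 to 163).

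The test of change was limma 3.58.1 (R 4.3.3) on log2(RPKM + 1) of the 17403 IDs with a mean of at least 1 RPKM. A single fit held all 10 libraries, with the 5 times as factor levels (trend and robust eBayes, Benjamini-Hochberg threshold 0.05 over all tested IDs). This scale understates changes of low genes. The count-based packages named in the design for counts were not used, because the unit is RPKM. Each ± is an SD over n = 2 libraries or an SE where stated. The members and lists were chosen with earlier results of these data known.

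Library numbers were checked for pairing by the correlation over genes of library 1 minus library 2. It was 0.54 to 0.70 between treated times and -0.32 to -0.14 between 0 h and each of them, so the numbers were taken to pair the treated libraries only. Over the 100 members alone the split was less clear, with -0.034 to 0.60 between treated times and -0.22 to 0.20 between 0 h and each of them. Named were the first 10 members, IDs without a JCGZ tag among the first 20, ranks 99 to 102, the called members with the widest changes per comparison (2 each way) or, with none called, the widest change each way, the 3 lowest and highest coefficients of variation and the 3 IDs most like the first member. Novel01008, the further called members and those added by the block were named after their values were seen. Alternatives were another pseudocount (0.1), filter, moderation, scaling, length correction (lowess span 0.3), block, voom and leaving out libraries.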

Additional observations from a re-analysis of the deposited data

Results flagged for a closer look

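These members stand out because their change from 0 h differed between 2 times, by limma in the fit to all 10 libraries (adjusted p under 0.05). The 0 h level cancels in such a difference. The values are therefore those of the comparisons from 6 h to 12 h and from 12 h to 24 h given above, not further tests. JCGZ_02232, JCGZ_18481 and JCGZ_21465 are members through times compared here, so their differences were not independent of the choice. Between 6 h and 12 h the change of JCGZ_04588 differed by -4.98 and that of JCGZ_04587 by -4.96 (log2). Between 12 h and 24 h the change of JCGZ_02232 differed by 8.50, that of JCGZ_04587 by 6.18, that of JCGZ_04588 by 6.06, that of JCGZ_18481 by 4.99 and that of JCGZ_21465 by -5.11 (log2). The 12 h libraries enter both steps. In fits to the 4 libraries of each pair limma called 0 members and 0% of all tested IDs in either.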

How the results depend on the processing

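Of 14 summary results, 197 values under alternatives stayed close to the reported ones and 56 moved, and no named change reversed. Leaving out single libraries gave 0 to 1 called members at 6 h (reported 2), 2 to 4 at 12 h (4), 0 to 3 from 6 h to 12 h (2), 3 to 5 from 12 h to 24 h (5), 4 to 5 in the F-test (5) and 0 at 24 h, at 48 h and from 24 h to 48 h. Leaving out a library of a compared time also lowered the share of all tested IDs called in every comparison with calls. This holds only for libraries of the compared times. Leaving out a library of another time lowered the members' count at 6 h too. The counts of members and of all tested IDs did not always move together. At 6 h, 1 member was called with a pseudocount of 0.1, median-of-ratios scaling, TPM-like rescaling or voom, and 0 without a filter. Of all tested IDs these called 1.03%, 1.17%, 0.724%, 0.787% and 0.783% (reported 1.13%). From 6 h to 12 h, 1 member was called without a filter, with median-of-ratios scaling or voom, and 0 in the fit to 4 libraries, which also called 0 from 12 h to 24 h. Without a filter, with median-of-ratios scaling and with voom, 0.0634%, 0.0517% and 0.069% of all tested IDs were called (reported 0.126%). The replicate block over all 10 libraries called 4 members from 6 h to 12 h, and with the length correction 9 at 12 h and 9 from 12 h to 24 h, while 0.316%, 4.32% and 2.82% of all tested IDs were called; among the 8 treated libraries it called 11 from 12 h to 24 h (7.15% of all). With the 0 h numbers crossed, a pairing added after the data were seen like that among the treated libraries, the counts were 11 at 12 h, 11 from 12 h to 24 h and 8 in the F-test, against 5.83%, 6.02% and 5.97% of all tested IDs. The block changed no other count by more than 1.5 times. At 0, 6, 12, 24 and 48 h the members' share of recovered reads was 13.5%, 11.9%, 10.3%, 14.7% and 11.01%, the 50 highest held 15.3%, 13.2%, 12.0%, 15.4% and 13.2% of summed RPKM and the 200 highest 30.9%, 29.4%, 27.3%, 32.4% and 27.8%. The 100 highest by median held 19.6% at 6 h. Leaving out single libraries and choosing members anew gave shares of 20.9% to 22.9%, 19.6% to 20.2%, 15.6% to 20.2%, 21.5% to 24.1% and 17.9% to 20.5% in that order, with 97 to 99 members shared. With IDs ranked by reads 58 members were shared, by median 94 and by mean log2 level 95. The causes were not tested. The lowest count of a member in any library was 48 reads.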
